A study of Mus musculus with 8 samples.

Results

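Twsg1 and 9 genes of bone morphogenetic protein (BMP) signalling (Bmp1, Bmp4, Bmpr1a, Bmpr2, Grem1, Id1, Id2, Id3 and Smad6) were examined in cultured mouse aortic smooth muscle cells that had been transfected with a moR-21 mimetic or with a scrambled control oligonucleotide. These 10 genes, among 18138 gene symbols in the array table, were chosen by their measured differences between the treatments and by their place in the pathway, so their treatment differences are given as a description without a test. All 10 were on the array, with 17 probes in all. Of these probes 13, from 9 of the 10 genes, were detected (at least 1 array with a detection p-value below 0.01), and 12 of them were detected on all 8 arrays.

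The control group held 3 samples given the scrambled oligonucleotide and the moR-21 group held 3 samples given the mimetic, each at 5 nM with RNA taken after 48 h. The cells of both groups were primary explant cultures grown out of pieces of several mouse aortas, and were transfected with RNAiMAX. The strain and age of the mice, and whether cells of different aortas were pooled, were not given in the sources used here, and nothing says that the 3 samples of a group were separate cultures, so the spread between them may be technical. For control sample 1 and for moR-21 sample 3 there were repeat arrays, A and B, whose mean was used. The values are log2 signals after quantile normalization of the 8 Illumina arrays. A difference is the moR-21 mean minus the control mean, with the standard error (SE) of the limma fit over all 11651 detected probes. Each gene is read at its brightest detected probe unless another is named. A gene past the cutoffs had a fold change over 1.3 (0.38 on the log2 scale) and a limma adjusted p under 0.002, the thresholds that the paper's text names. For the 10 genes these cutoffs only describe the size of a difference.

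The moR-21 mimetic copies a small RNA cut from the miR-21 precursor, just upstream of miR-21 itself. The stretch of the precursor before miR-21a-5p and the mature miR-21a-5p are shown because they are the treatment and its neighbour. The capitals mark the seed, bases 2 to 8, which for moR-21 was placed so that the letters GUACC, shared by its possible seeds, fall in its middle. On that placement base 1 of moR-21 lies outside the annotated precursor, and the stretch begins at base 2. The sequences are from RefSeq, GRCm38.p6, chromosome 11, minus strand, from 86584142 to 86584158 for the first and from 86584120 to 86584141 for the second.

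moR-21 part of the precursor: UGUACCAccuugucgga

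miR-21a-5p: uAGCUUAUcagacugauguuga

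The seeds of these neighbouring RNAs differ.

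BMPs are secreted ligands that join type I and type II receptor kinases at the cell surface. The activated receptors phosphorylate Smad1, Smad5 and Smad9, which enter the nucleus with Smad4 and switch on target genes, among them the Id genes and the feedback inhibitor Smad6. Outside the cell the ligands are held by antagonists such as chordin and gremlin. Twsg1 (twisted gastrulation) binds both BMPs and chordin, and Bmp1, despite its name, is a tolloid proteinase that cuts chordin and procollagens. In blood vessels this pathway acts on smooth muscle differentiation, and inherited loss of BMPR2 is a known cause of pulmonary arterial hypertension.

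After the moR-21 mimetic Twsg1, Bmp1 and Id1 were lower and past the cutoffs, while 0 of the 10 genes were higher and past them. Of the 9 detected genes, 3 (33.3%) thus lay past the cutoffs on the lower side, where 4.38% of all 8727 detected gene symbols did, and 0 on the higher side, where 3.41% did. The groups did not overlap in 6 of the 9 genes (66.7%), 3 lower and 3 higher, against 46.3% of all detected symbols. Nothing is read from these shares because the genes had been chosen on the same comparison, and because 1 of the 9, Grem1, passed the detection filter on a single moR-21 array. The median difference was −0.05 over the 9 genes and 0.01 over all detected symbols. The plot of signal by sample shows the detected genes together with chordin, a pathway gene outside the 10.

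**Figure D1:**
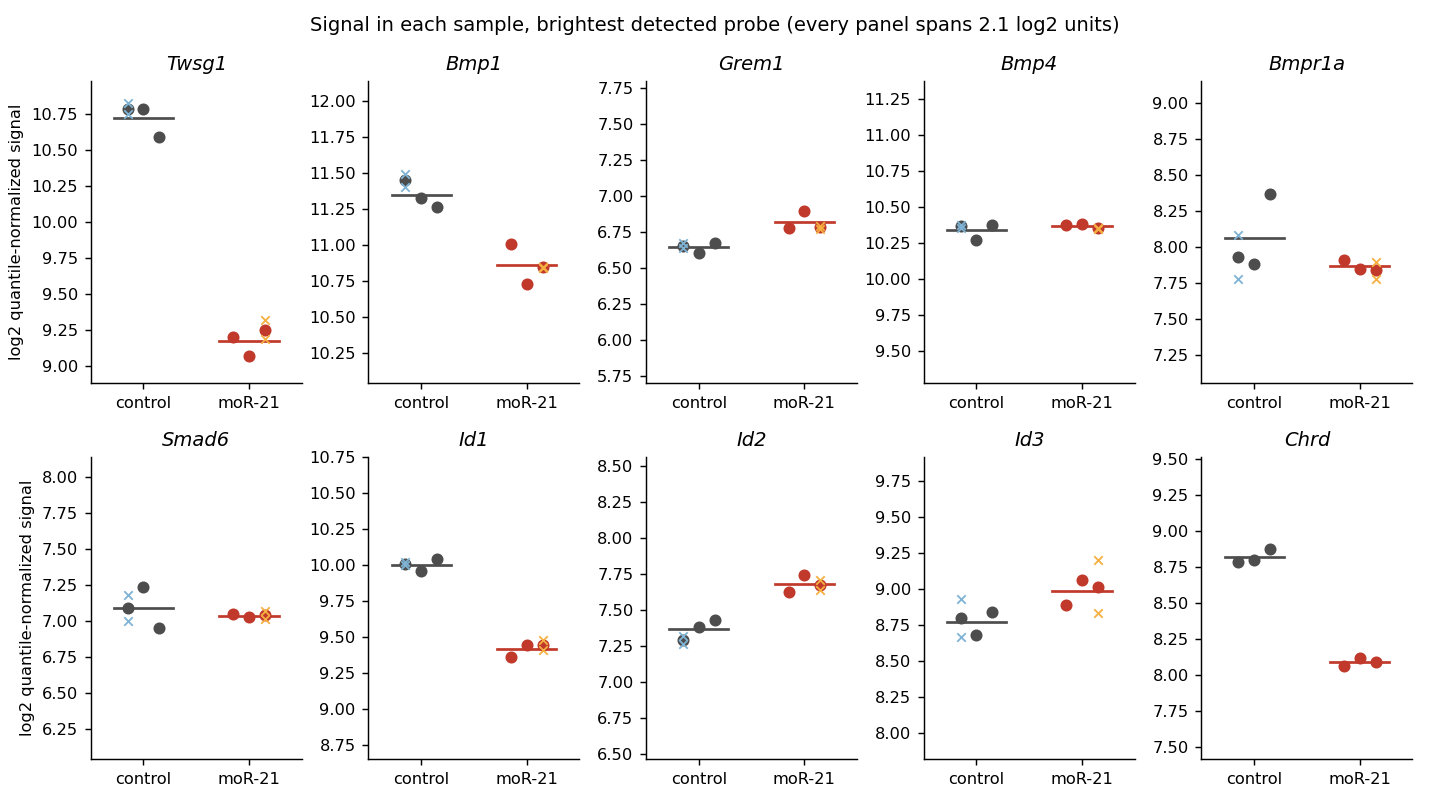
Log2 quantile-normalized signal of the brightest detected probe of 9 BMP genes and of Chrd in the 3 control samples (grey points) and the 3 moR-21 samples (red points), with the group mean as a bar and, for the 9 genes, the repeat arrays of control sample 1 and moR-21 sample 3 as crosses. Every panel has the same height in log2 units, and Twsg1 shows the widest gap, from 10.72 to 9.18.

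Of the extracellular proteins, Twsg1 differed most. Its gene lies on chromosome 17 from 65923065 to 65951187 (GRCm38.p6, protein coding), and probe ILMN_2463979 was detected on all 8 arrays. Before any normalization this probe had intensities of 1844 and 1945 on the repeat arrays of control sample 1, 1612 in control sample 2 and 1497 in control sample 3. After moR-21 the intensities were 605 and 512 in samples 1 and 2, and 651 and 558 on the repeat arrays of sample 3. Every moR-21 array was thus below every control array, with the lowest control array more than 2 times the highest moR-21 array. After normalization the log2 signal was 10.79, 10.79 and 10.59 in control samples 1, 2 and 3 and 9.20, 9.07 and 9.25 in moR-21 samples 1, 2 and 3. The group values were 10.72 ± 0.12 (SD, n = 3) and 9.18 ± 0.093 (SD, n = 3). The difference was −1.55 (SE 0.063), which leaves 34.2% of the control level, a 2.92-fold fall. Among all 8727 detected symbols this was the fifth largest fall.

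The other Twsg1 probe, ILMN_1235253, gave no information on the gene. It was detected on 0 of 8 arrays, with detection p-values from 0.475 to 0.999 and log2 signals between 6.47 and 6.60. The Twsg1 result therefore stands on 1 probe. Its repeat arrays differed by −0.08 in control sample 1 and −0.13 in moR-21 sample 3 (B minus A), far less than the treatments did. Across all 6 samples, the genes whose centred log2 profile lay nearest to that of Twsg1 were Stt3b, a catalytic subunit of oligosaccharyltransferase (root mean square distance 0.089, difference −1.48), Acot1, an acyl-CoA thioesterase (0.094, difference −1.50), and Spcs3, a signal peptidase subunit (0.097, difference −1.38). Such a profile is mostly the step between the treatments, so nearness here means a fall of like size. Common regulation was not tested.

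Bmp1, the tolloid proteinase, was measured by 4 probes, all detected on all 8 arrays, and they ranged widely. The gene is on chromosome 14 from 70474555 to 70520716 (GRCm38.p6). At the brightest probe, ILMN_2989955, the log2 signal was 11.45, 11.33 and 11.27 in the control samples and 11.01, 10.73 and 10.85 in the moR-21 samples, with no overlap. The difference was −0.49 (SE 0.068), 71.4% of the control level. The next probe, ILMN_1218116, also passed the cutoffs, with 9.66, 9.61 and 9.55 in controls against 9.23, 9.22 and 9.10 and a difference of −0.42 (SE 0.052). At the brightest probe Bmp1 was no longer past the cutoffs under normexp background correction or median scaling (−0.50 in each), nor when its 4 probes were averaged (−0.31).

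The third Bmp1 probe, ILMN_2713538, separated the groups as well, with 9.19, 9.27 and 9.20 in controls against 8.93, 8.91 and 8.87. Its difference of −0.32 (SE 0.047) was smaller than the fold-change cutoff. The dimmest probe, ILMN_1255558, read 6.94, 6.95 and 7.02 in controls and 6.91, 6.98 and 6.92 after moR-21, so that the groups overlapped and the difference was −0.03 (SE 0.047). Its raw intensity, between 119 and 128, was little above the array medians of 102 to 109. Which transcript forms each Bmp1 probe reads was not tested.

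Grem1 (gremlin 1), a secreted BMP antagonist, was at the edge of detection. Probe ILMN_1228522 was detected on moR-21 array 2 alone, and on none of the control arrays. Its log2 signal was 6.65, 6.60 and 6.67 in the control samples and 6.78, 6.89 and 6.78 in the moR-21 samples, without overlap. The control mean was 6.64 and the moR-21 mean 6.82, and since the moR-21 mean did not exceed the detection floor of the control arrays (6.83, the mean over arrays of the lowest signal of a detected probe), no fold is given. Bmp4, the only BMP ligand with a detected probe among all those examined, was bright and level. Probe ILMN_1215252 read 10.36, 10.27 and 10.38 in controls and 10.38, 10.38 and 10.35 after moR-21, a difference of 0.03 (SE 0.047). Its sign turned under median scaling, under cyclic loess and without control sample 2, where the values lay between −0.0015 and −0.00013.

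The receptors gave little. Bmpr1a, a type I receptor also known as ALK3, was read by a pair of probes. The brighter one, ILMN_1251119, read 7.93, 7.89 and 8.37 in controls and 7.91, 7.84 and 7.84 after moR-21. Only control sample 3 stood clear of the other samples, and the groups overlapped. The difference was −0.20 (SE 0.095) and shrank to −0.04 without control sample 3. The same probe was also poorly repeated, with 7.78 and 8.09 on the repeat arrays of control sample 1. The dimmer probe, ILMN_2653312, was steadier, with 7.62, 7.60 and 7.65 against 7.60, 7.49 and 7.51, and a difference of −0.09 (SE 0.048). Its samples only just failed to overlap, with 7.6036 in control sample 2 and 7.6029 in moR-21 sample 1. Read array by array they overlapped, since array A of control sample 1 read 7.57. Bmpr2, the type II receptor, could not be assessed. Its probes, ILMN_2614324 and ILMN_2614322, were detected on 0 of 8 arrays, and their log2 signals lay between 6.59 and 6.68 in all 6 samples.

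The targets did not go one way. Id1, Id2 and Id3 encode inhibitors of basic helix-loop-helix factors, proteins that hold E proteins away from DNA, and all are classic BMP targets. Id1 (ILMN_2672190, chromosome 2, 152736251 to 152737410) read 10.01, 9.96 and 10.04 in controls and 9.36, 9.45 and 9.44 after moR-21. Every moR-21 sample was below every control sample, the difference was −0.58 (SE 0.047), and the signal was 66.7% of the control level. The repeat arrays differed by −0.02 and −0.07, and the raw intensity ran from 918 to 1160 on the control arrays and from 646 to 727 on the moR-21 arrays.

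Id2 (ILMN_1228557, chromosome 12, 25093799 to 25096092) lay on the other side. It read 7.29, 7.38 and 7.43 in controls and 7.63, 7.74 and 7.67 after moR-21, without overlap, a difference of 0.31 (SE 0.052), smaller than the cutoff of 0.38. Its raw intensity was 157 to 169 on the control arrays and 192 to 213 on the moR-21 arrays. Background correction (normexp) moved the difference to 0.57 (SE 0.094), and Id2 was still not past the cutoffs there. The other Id2 probe, ILMN_2887239, was detected on 0 of 8 arrays.

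Id3 (ILMN_2687169, chromosome 4, 136143822 to 136145392) read 8.80, 8.68 and 8.84 in controls and 8.89, 9.06 and 9.02 after moR-21. The samples did not overlap and the difference was 0.22 (SE 0.058). The repeat arrays of Id3 differed by more than that, by −0.26 in control sample 1 (8.93 on array A, 8.67 on array B) and by −0.36 in moR-21 sample 3 (9.20 and 8.84). Read array by array, Id3 therefore overlapped between the treatments. Smad6 (ILMN_3008748), the inhibitory Smad that BMP signals induce, was dim, with 7.09, 7.23 and 6.95 in controls and 7.05, 7.02 and 7.04 after moR-21. The controls bracketed the moR-21 samples, and the difference of −0.05 (SE 0.062) became 0.02 without control sample 2.

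**Figure D2:**
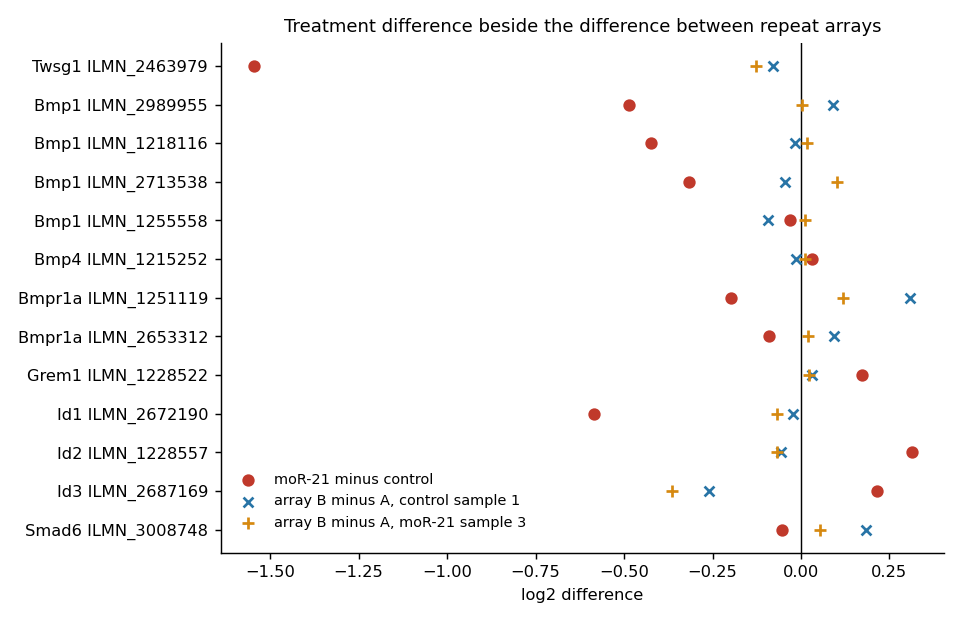
Log2 difference between the treatments (red points) for each of the 13 detected probes of the BMP genes, beside the difference between repeat arrays (B minus A) of control sample 1 (blue crosses) and of moR-21 sample 3 (orange plus signs). For Twsg1, Id1, Id2 and the 3 brighter Bmp1 probes the treatment difference is the larger, while for Id3 the repeat arrays differ by −0.26 and −0.36 against a treatment difference of 0.22.

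The technical error of these genes was like that of the array as a whole. Over the 13 detected probes the median size of the difference between repeat arrays was 0.061, and over all detected probes it was 0.057 in control sample 1 and 0.064 in moR-21 sample 3. The largest among the 13 was the 0.36 of Id3.

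A wider list of 69 BMP pathway genes outside the 10 was read in the same fit. Of these, 62 were on the array and 27 were detected. Chordin (Chrd), the BMP antagonist that Twsg1 binds and that tolloid proteinases cut, fell. It was the only one of the 27 past the cutoffs, 1 lower (3.70%, where 4.38% of all detected symbols were) and 0 higher (where 3.41% were). With the unadjusted limma p, 8 genes were under 0.05, of which 4 were lower and 4 higher, where 21.1% of all detected symbols were lower and 23.4% higher at that p. Id4, among the 4 higher, was detected on none of the control arrays. The median difference of the 27 was −0.02, beside 0.01 over all detected symbols, and the median size of a difference was 0.072, beside 0.097.

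Chrd (chromosome 16, 20731425 to 20742384) read 8.79, 8.80 and 8.87 in control samples 1, 2 and 3 and 8.06, 8.11 and 8.09 in the moR-21 samples. The groups were far apart against a spread of under 0.1 within each. The difference was −0.73 (SE 0.046, limma adjusted p = 4.74e-08, 95% confidence interval −0.83 to −0.63). It passed the cutoffs under each of the 18 alternative settings at this probe, with differences between −0.96 and −0.71. Of the remaining extracellular modulators, 0 of 6 passed the cutoffs, and the largest difference was that of Fst (follistatin), −0.07 (SE 0.046, limma adjusted p = 0.254). Nog (noggin), Chrdl1 and Sost were not detected.

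**Figure D3:**
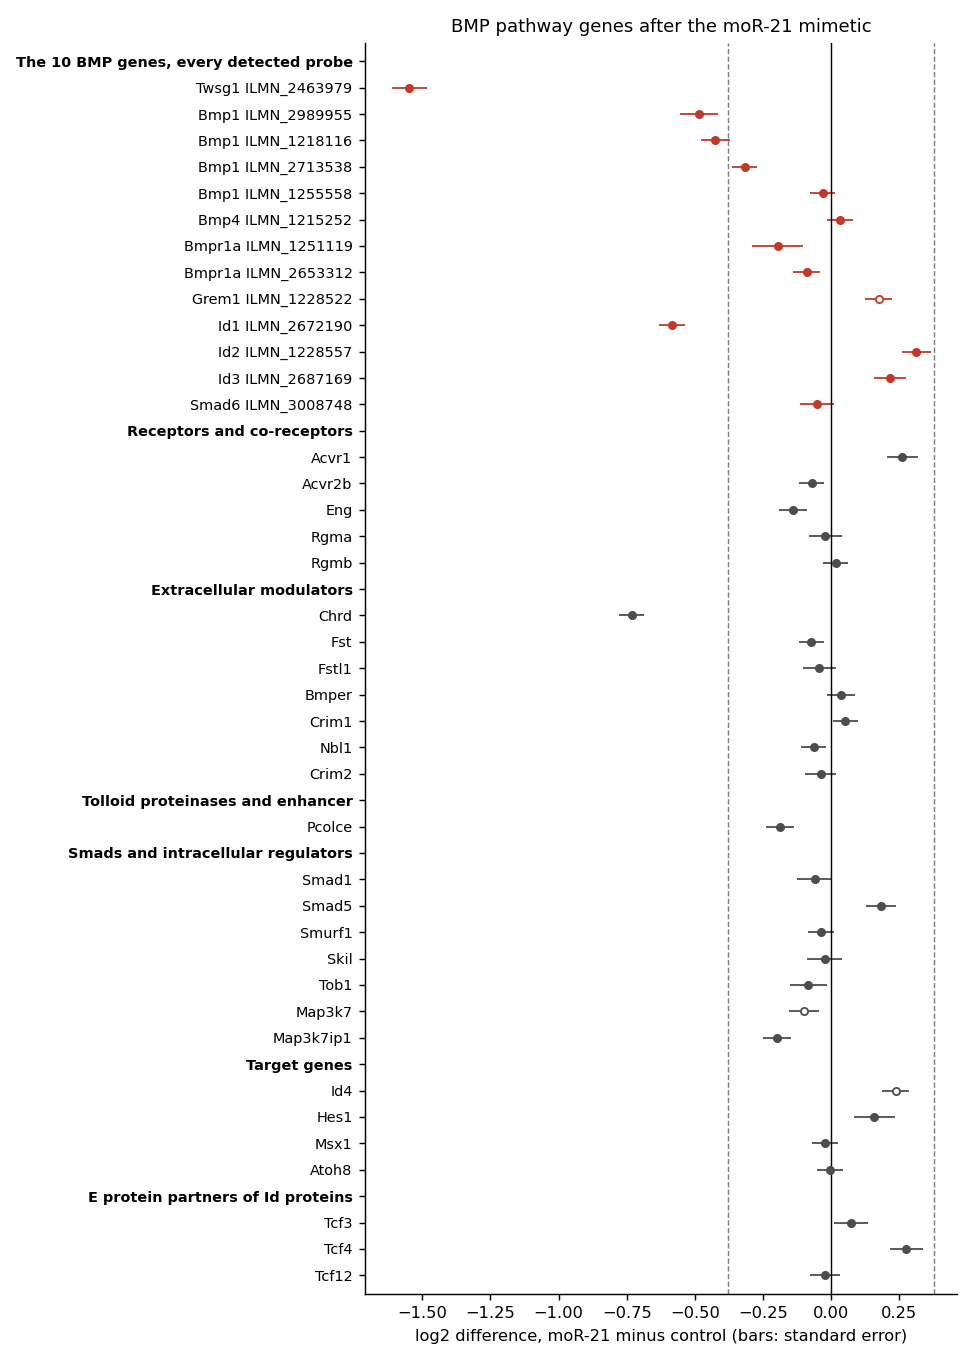
Log2 difference, moR-21 minus control, with its standard error, for the 13 detected probes of the BMP genes (red) and for 27 other detected BMP pathway genes by role (grey). Dashed lines mark a fold change of 1.3, and among the grey points only Chrd, at −0.73, lies beyond them. Open points (Grem1, Id4, Map3k7) mark probes detected on none of the arrays of a treatment, whose values are not measured differences.

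Among the ligands of the wider list, 12 of 13 were on the array and 0 were detected, so that Bmp4 was the only one with a measurable level. Of all detected symbols, 21.1% were lower and 23.4% higher at an unadjusted limma p under 0.05. These shares stand beside each count by role that follows, and nothing is read from those counts. In the receptor group 5 of 10 were detected and 0 passed the cutoffs in limma, with 2 at an unadjusted p under 0.05. Acvr1 (ALK2), another type I BMP receptor, had the largest difference, 0.26 (SE 0.056, limma adjusted p = 0.00231), and the co-receptor endoglin (Eng) had −0.14 (SE 0.051). The remaining type I receptor Bmpr1b and the endothelial Acvrl1 were not detected. Pcolce, which enhances procollagen cleavage by Bmp1, was at −0.19 (SE 0.051, limma adjusted p = 0.0103), and the tolloid relatives Tll1 and Tll2 were not detected.

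Of the Smads and their regulators, 7 of 14 were detected and 0 passed the cutoffs in limma, with 2 at an unadjusted p under 0.05. The largest difference was that of Map3k7ip1 (Tab1), an activator of the kinase TAK1, at −0.20 (SE 0.051, limma adjusted p = 0.00787). Smad5, one of the Smads that carry the BMP signal, was at 0.18 (SE 0.055, limma adjusted p = 0.0198) and Smad1 at −0.06 (SE 0.063). Smad7 and Smad9 were not detected.

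Of the other target genes, 4 of 10 were detected and 0 passed the cutoffs in limma, with 1 at an unadjusted p under 0.05. That gene was Id4, the remaining Id family member, which entered the counts through the moR-21 group alone. Its probe was detected on 3 moR-21 arrays and on none of the control arrays. It read 6.68, 6.63 and 6.68 in controls and 6.86, 6.99 and 6.86 after moR-21. The moR-21 mean of 6.90 was little above the detection floor of the control arrays (6.83). That mean includes array A of sample 3, where the probe was not detected, so no fold is given. The limma p of Id4 rests on control signal below detection and is not read. Of the E proteins that Id proteins bind, all 3 were detected and 0 passed the cutoffs in limma, with 1 at an unadjusted p under 0.05. It was Tcf4, at 0.28 (SE 0.059, limma adjusted p = 0.00246), while Tcf3 was at 0.07 and Tcf12 at −0.02.

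Promoter sequence, 250 bases before to 50 bases after the start (GRCm38.p6), was available for 8 of the 10 genes. Id1 and Bmp1, whose gene positions are given above, had no promoter sequence in the set used and were not searched. The motif searched was GGCGCC, a GC-rich element that BMP-activated Smads bind and that reads the same on both strands. It was present in 4 of the 8 promoters, those of Bmpr1a, Bmpr2, Grem1 and Id2, and absent from those of Bmp4, Id3, Smad6 and Twsg1. Of all 32851 promoters in the table, 11.9% held it. Those promoters were not matched to the 8 for GC content, and nothing is read from these shares. The search was also made for Chrd and Id4, and both held it. The windows of Id2, Grem1, Chrd and Id4 are shown, with the motif in capitals, because these are the searched genes with the motif whose samples did not overlap at the brightest detected probe. Grem1 and Id4 were detected on none of the control arrays, so their separation is of signal near background. Twsg1 and Id3, whose samples also did not overlap, lacked the motif, while Bmpr1a held it and overlapped at its brightest probe. Because the windows were picked by separation, they cannot show a link between the motif and the treatment difference. Such a link was not tested. Each window runs 5′ to 3′ along the gene's strand. They lie at chr12:25096306-25096335 (minus), chr2:113758709-113758738 (minus), chr16:20732912-20732941 (plus) and chr13:48260956-48260985 (plus). The start used for Chrd, at 20733127, is inside the full extent of the gene given above.

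Id2: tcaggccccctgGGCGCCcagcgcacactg

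Grem1: cgcggcggcgacGGCGCCtgaccaatggag

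Chrd: cgggccagagccGGCGCCtagggcactaaa

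Id4: ctcgggttgcccGGCGCCccgccctcgcca

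A match describes these letters alone and was not tested as a binding site.

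The labels call the cells smooth muscle cells in the source name and cell type fields and AoECs in the description field. Of 8 smooth muscle markers, 7 were on the array and 5 were detected, while Myh11 and Cnn1, markers of mature contractile cells, were not. Acta2 was bright (13.16 to 13.21 in controls), but Tagln was detected on only 4 of the 8 arrays. The control samples read 6.73, 6.72 and 6.76 for Tagln, below the detection floor of the control arrays (6.83). Of 8 endothelial markers 1 was detected, Vwf, at a log2 signal between 6.87 and 6.98, and Pecam1, Cdh5, Kdr and Tek were not. Cell-type markers also moved with the treatment. Acta2 rose by 0.40 (limma adjusted p = 2.14e-05), while Des (desmin) was at −0.38 (limma adjusted p = 8.60e-05), just under the fold-change cutoff. Of the 5 detected smooth muscle markers 3 were lower and 2 higher, with a median difference of −0.00093. Tagln, counted among the 2 higher, read 6.98, 6.89 and 6.94 after moR-21. Since its control signal lay below the floor, no fold is given for it. The summed linear signal of the 5 markers, mostly that of Acta2, was 9987 to 10349 in controls and 12723 to 13565 after moR-21. The endothelial signal, Vwf alone, was 117 to 120 in controls and 118 to 127 after moR-21. Of 6 mesothelial markers 2 were detected, and their summed signal was 771 to 780 in controls and 402 to 416 after moR-21, mostly through Upk3b, a uroplakin, which fell by 1.24 on the log2 scale (limma adjusted p = 2.51e-10). Msln, Upk1b and Lrrn4 were not detected. Of 6 macrophage and leukocyte markers 2 were detected, Cd14 and Csf1r, while Ptprc, Cd68, Emr1 and Itgam were not. The summed signal of the 2, mostly that of Cd14, was 1460 to 1529 in controls and 1244 to 1271 after moR-21. Cd14 was at −0.27 (limma adjusted p = 3.38e-04). Csf1r, detected on 6 of the 8 arrays, was at −0.01, and 0 were past the cutoffs in limma. In RNA from whole cultures, fewer cells of a type and less RNA per cell cannot be told apart, and the part of these cell types in the values of Twsg1, Bmp1, Id1 and Chrd was not tested.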

How the data were processed

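Total RNA of 6 samples was measured on 8 Illumina mouse BeadChip arrays. The authors deposited 1 table with, for each probe and array, the non-normalized intensity from the BeadStudio programs and a detection p-value; background correction was not given in the sources used here. Columns were assigned to samples by name, and 0 were left unassigned. Quantile normalization was run over the 8 arrays at once, values were put on the log2 scale, repeat arrays gave 1 mean per sample, and limma (lmFit, eBayes) compared the treatments over 11651 of 25697 probes, with Benjamini-Hochberg adjustment over all of them and no covariate. Per array, 10285 to 10512 probes were detected and the median intensity was 102 to 109; the number of arrays limits the precision. The genes, the wider lists and the tests were chosen with earlier results of these data known. All probes of the 10 genes were named, with each pathway gene past the cutoffs and the largest difference in each role (others, such as Eng, Smad1 and Tcf3, were added after their values were seen). Older symbols were matched through RefSeq. The fit was tested on simulated data. Software was R 4.3.3, limma 3.58.1, Python 3.11.15, pandas 2.3.3, numpy 2.4.6 and matplotlib 3.10.9. Alternatives were background correction, scaling, detection filters, choice of arrays, eBayes settings, cutoffs, the replicate block, averaging over probes and leaving out each sample.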

Additional observations from a re-analysis of the deposited data

How the results depend on the processing

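Of 18 alternative settings, 17 left the count of changed probes within 1.5 times its value of 811, and a fold change over 1.5 gave 260. That setting also left 1 of the 10 BMP genes past the cutoffs, Twsg1, in place of 3. Id1 missed it narrowly, with a 1.499-fold fall, and the brightest Bmp1 probe had a 1.40-fold fall. Normexp background correction (offset 16) and median scaling left Twsg1 and Id1 past them but not the brightest Bmp1 probe, whose difference was −0.50 in each. In the wider list normexp gave 2 genes, Chrd and Id4, in place of 1. The difference of Twsg1 ran from −1.70 (normexp) to −1.50 (without moR-21 sample 2), that of Id1 from −0.65 (normexp) to −0.56, and that of Bmp1 from −0.56 to −0.31, the latter as the mean of its 4 probes, which was not past the cutoffs. Whether the replicate numbers pair the samples could not be settled with 3 samples in each group. Same-numbered samples had deviations correlated at 0.19, 0.04 and 0.06, and 2 samples correlated better with another number. With the replicate block limma called 815 probes, and Twsg1, Bmp1, Id1 and Chrd stayed past the cutoffs. Probes near background (Grem1, Id4, Smad6 and the dimmest of Bmp1) are limited by signal.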
